A study of Homo sapiens with 2 samples.

Results

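The mitosis and spindle genes described here are 42 genes of mitotic entry, spindle assembly, the kinetochore, chromosome segregation and cytokinesis. They were taken by symbol from a fixed list and read from probe sets annotated to exactly 1 gene. Of the 42, 41 were measured among 18377 genes on the array, and CENPA, the centromeric histone variant, had no probe set annotated to it alone. EBC1 is a human lung squamous carcinoma line with an amplified MET receptor gene, and EBC1-R was derived from it by exposure to rising concentrations of PHA-665752, an inhibitor of the MET kinase. The resistant cells were kept in 3 µM inhibitor, and the labels give none for the parental culture, so resistance and the presence of the drug cannot be told apart. There was 1 array of EBC1 and 1 array of EBC1-R, both from total RNA of frozen cells. The labels do not say whether EBC1-R is a clone or a mixed population. Every value below is therefore a single measurement without a replicate error, and no difference was tested.

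Entry into mitosis is driven by CDK1 bound to A- and B-type cyclins, which CDC25 phosphatases switch on. Aurora and Polo-like kinases then build the spindle, kinetochores tie chromosomes to microtubules, and the spindle checkpoint holds back CDC20, the activator of the anaphase-promoting complex, until every chromosome is attached. Separase then cuts cohesin, and the central spindle and a contractile ring divide the cell. Most of these genes are transcribed in the later part of the cell cycle, under the DREAM repressor complex in resting cells and the activators MYBL2 and FOXM1 in cycling cells, and their transcripts are therefore abundant in dividing tumour lines.

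Many promoters of such genes are known to carry a cell cycle genes homology region, with the letters TTTGAA or TTCGAA, and CCAAT boxes bound by NF-Y. RefSeq promoter windows (GRCh38.p14, 250 bases before to 50 after the annotated start) were at hand for 36 of the 42 genes, 29 of them with 1 window and 7 with several. AURKA, BIRC5, FOXM1, RACGAP1, TPX2 and TTK had no entry. The 120 bases before the start are shown for 5 genes, chosen after their values were seen because they span the range of differences on the arrays. They are ESPL1 (chr12:53268179-53268298) and MYBL2 (chr20:43666994-43667113), which were lowest in EBC1-R relative to EBC1, CCNB2 (chr15:59105026-59105145) and CDC20 (chr1:43358861-43358980), which differed little, and KIF4A (chrX:70289984-70290103), which was higher. All lie on the plus strand, and capitals mark TTTGAA and CCAAT on either strand (none of the 5 stretches held TTCGAA).
ESPL1: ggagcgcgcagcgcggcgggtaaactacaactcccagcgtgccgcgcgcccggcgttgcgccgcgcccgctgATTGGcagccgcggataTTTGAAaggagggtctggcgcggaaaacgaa
MYBL2: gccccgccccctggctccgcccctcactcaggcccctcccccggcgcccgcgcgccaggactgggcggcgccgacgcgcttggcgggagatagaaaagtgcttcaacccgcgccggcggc
CCNB2: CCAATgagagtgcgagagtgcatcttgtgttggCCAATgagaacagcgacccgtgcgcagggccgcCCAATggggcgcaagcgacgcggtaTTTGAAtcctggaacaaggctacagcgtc
CDC20: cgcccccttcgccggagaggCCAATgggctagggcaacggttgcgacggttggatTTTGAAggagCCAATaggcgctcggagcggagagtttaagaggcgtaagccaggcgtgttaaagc
KIF4A: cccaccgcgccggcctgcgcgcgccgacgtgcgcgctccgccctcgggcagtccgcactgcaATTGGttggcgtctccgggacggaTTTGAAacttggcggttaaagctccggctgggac

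The same letters stood before ESPL1, which was lower, and KIF4A, which was higher by its single-gene probe set. The probe set that KIF4A shares with KIF4B went the other way (-0.31), so this contrast rests on 1 probe set. In ESPL1, TTTGAA began 31 bases and a CCAAT box on the opposite strand 48 bases before the start. In KIF4A they began 34 and 58 bases before it, with the CCAAT box again on the opposite strand. CCNB2 had TTTGAA at 29 bases and CCAAT boxes at 54, 87 and 120 bases within the printed stretch. CDC20 had TTTGAA at 65 bases between CCAAT boxes at 55 and 100 bases, whereas the printed stretch of MYBL2 held none of the letters marked.

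Over whole windows on both strands, 24 of 36 genes (66.7%) held TTTGAA in at least 1 window, against 18.2% of all 27305 genes with a window. By single windows of equal length, the shares were 56.2% of 48 and 15.2% of 35116. TTTGAA began within 100 bases before to 50 after the start in 22 genes. CCAAT was found in 28 of 36 (77.8%) against 39.7% of all genes, and both motifs in 19 (52.8%) against 7.26%. TTCGAA was found in 3 genes, BUB1, CDC25B and NDC80, the last of which also held TTTGAA. The other elements searched were set beside their shares of all genes. GTAAACA, a forkhead motif, was found in 1 gene, CDK1 (4.19% of all genes). TTCCCGC, an E2F motif, was found in 3 (8.33% against 7.82% of all genes) and TATAAA in 3 (8.33% against 13.99%). GGGCGG, a GC box, was in 27 of the 36 genes, in 31 of 41 DNA replication genes and in 48.3% of all genes. Among the 41 replication genes with a window, 4.88% held TTTGAA, 58.5% CCAAT and 41.5% TTCCCGC. Among 137 other mitosis genes with a window, 42.3% held TTTGAA, 56.2% CCAAT and 24.8% TTCCCGC. The median log2 difference was -0.28 over the 23 measured genes with TTTGAA and -0.43 over the 12 without. With TTCGAA counted as well the medians were -0.33 over 25 genes and -0.40 over 10. For TTTGAA together with CCAAT the medians over whole windows were -0.35 over 18 genes with both and -0.38 over 17 without. With only the bases before the start searched, this split had the opposite order, -0.42 over 15 genes with both and -0.36 over 20 without. TTTGAA alone (-0.27 with and -0.40 without) and TTTGAA or TTCGAA (-0.35 and -0.38) kept the first order there. These splits were not tested, and no order is read from them. A match to these letters describes the sequence and says nothing on binding, and the values above carry no test.

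On the arrays, 37 of the 41 measured genes were lower in EBC1-R than in EBC1, most of them by a modest amount. The direction is read against a background in which 55.5% of all genes were lower by any amount. By at least 1.2-fold, 28 of 41 were lower, where 14.2% of all genes were. By at least 1.5-fold, 8 were lower (3.16% of all genes), and by at least 2-fold only MYBL2 (0.887% of all genes). Because 39 of the 41 had a mean level at or above the median gene, the shares among such brighter genes are also relevant. They were 50.6%, 18.9%, 5.23% and 1.51% for the same 4 counts. The shares lower by any amount, 55.5% and 50.6%, also stand beside the directions given by role below. The median difference, EBC1-R minus EBC1, was -0.38 on the log2 scale over the 41 genes, and -0.03 over all genes. Only KIF4A was higher by at least 1.2-fold, where 15.1% of all genes and 21.0% of the brighter genes were. Levels here are log2 intensities as deposited. They compare a gene between the arrays and not different genes with each other, because probe sets differ in brightness.

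A yardstick within the arrays came from genes with several probe sets. The difference varied between probe sets of the same gene with a pooled SD of 0.16 (376 genes with a mean level at or above the median, 879 probe sets). This SD holds no variation between cultures. Of the 41 genes, 7 lay within it, namely CCNB1, CCNB2, AURKA, BUB1B, CDC20, CENPF and PRC1. The share of all genes within this SD was not counted, so the 7 are not set against a background. Lying beyond the SD does not by itself mark a gene as changed. In a bulk sample a smaller share of cells in mitosis and less transcript per mitotic cell cannot be told apart.

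**Figure D1:**
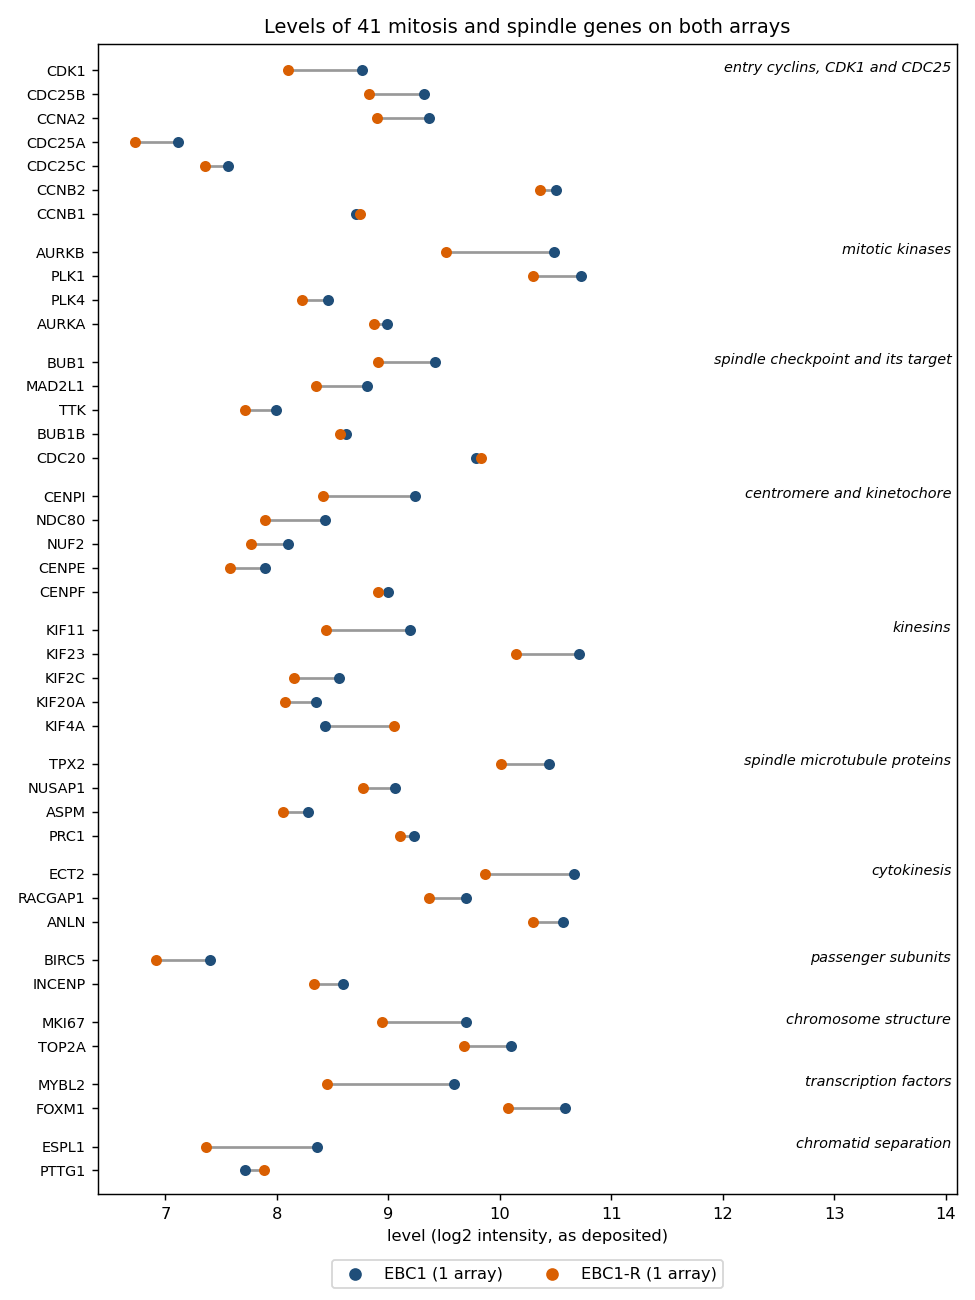
Level of each of the 41 measured genes on the EBC1 array (blue) and the EBC1-R array (orange), in log2 intensity as deposited, grouped by role and joined by a line. There is 1 array per group and no error bar. The EBC1-R point lies to the left in 37 genes and to the right in CCNB1, CDC20, KIF4A and PTTG1.

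**Figure D2:**
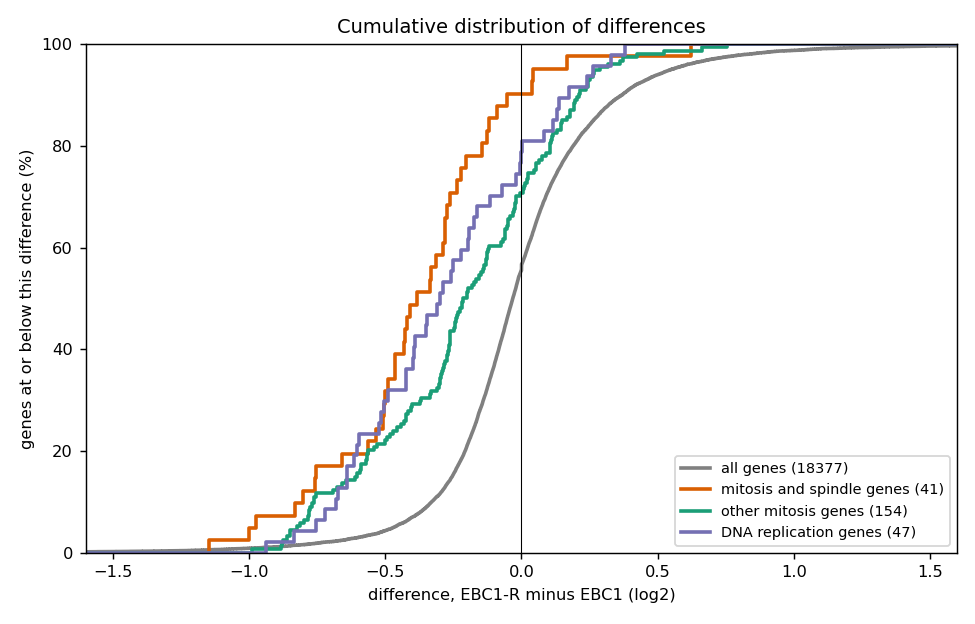
Cumulative share of genes, in percent, at or below each log2 difference, EBC1-R minus EBC1, for all 18377 genes, the 41 mitosis and spindle genes, 154 other mitosis genes and 47 DNA replication genes. The curve of the 41 genes lies left of that of all genes over most of its range, with medians of -0.38 and -0.03.

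The regulators of mitotic entry differed unevenly. CDK1, the kinase itself, stood at 8.76 in EBC1 and 8.10 in EBC1-R, 1.58-fold lower. CCNA2, the A-type cyclin that acts from S phase into early mitosis, went from 9.36 to 8.90, 1.38-fold lower. The B-type cyclins, which carry CDK1 through mitosis, hardly differed. CCNB1 (8.71 and 8.75) differed by 0.04 and CCNB2 (10.51 and 10.36) by -0.15, both within the probe set SD. The CDC25 phosphatases, which remove the inhibitory phosphates from CDK1, were all lower. CDC25B differed by -0.50 (9.32 to 8.82), CDC25A by -0.38 (7.11 to 6.73) and CDC25C by -0.20 (7.56 to 7.36). CDC25A is also known to act on CDK2 earlier in the cycle. Over the 7 genes of this role the median difference was -0.38, and the gap between CCNA2 and CCNB1 was 0.50.

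Among the mitotic kinases the Aurora paralogs stood apart from each other. AURKB, the catalytic subunit of the chromosomal passenger complex, went from 10.49 in EBC1 to 9.52 in EBC1-R, 1.96-fold lower. AURKA, which acts at centrosomes and spindle poles, was at 8.99 and 8.87, 1.09-fold lower. Their differences were thus 0.85 log2 units apart. PLK1, which acts in entry, at kinetochores and in cytokinesis, was 1.34-fold lower (10.73 to 10.30), and PLK4, the kinase of centriole duplication, 1.18-fold (8.46 to 8.22).

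The other passenger subunits were lower by less than AURKB. BIRC5, which encodes survivin, averaged 7.40 in EBC1 and 6.92 in EBC1-R over its 2 probe sets, a difference of -0.49. The 2 probe sets pointed the same way, with differences of -0.62 and -0.36, and BIRC5 alone of the 41 genes had more than 1 probe set of its own. INCENP, the scaffold of the complex, differed by -0.26, from 8.59 to 8.33. CDCA8 (borealin), from the list of other mitosis genes, differed by -0.59, from 9.20 to 8.62. All 4 subunits of this complex were therefore lower by any amount, where 55.5% of all genes and 50.6% of the brighter genes were. Their differences ran from -0.26 in INCENP to -0.97 in AURKB.

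Spindle checkpoint genes were lower in part. BUB1, a kinetochore kinase, went from 9.42 to 8.91, 1.42-fold lower. MAD2L1, which binds CDC20 in the inhibitory complex, was 1.38-fold lower (8.81 to 8.35), and TTK, the kinase that starts checkpoint signalling, 1.21-fold (7.99 to 7.71). Other parts of the inhibitory complex were not lower beyond the probe set SD. BUB1B, which encodes BubR1, differed by -0.05 (8.62 to 8.56), and BUB3, from the list of other mitosis genes, by 0.17 (9.59 to 9.76), barely beyond that SD. CDC20, the target of the checkpoint, likewise differed by 0.04, from 9.79 in the parental cells to 9.83 in the resistant cells.

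At the end of the pathway separase was lower and its inhibitor was not. ESPL1, which encodes separase, went from 8.36 to 7.36, just short of 2-fold lower. PTTG1, which encodes securin, the protein that holds separase inactive until anaphase, went from 7.71 to 7.88, 1.12-fold higher. The gap between them was 1.17 log2 units. The difference of PTTG1 was 0.17, barely beyond the probe set SD of 0.16. Its close copies PTTG2 and PTTG3P, each with a probe set of its own, differed by 0.03 and 0.04. Cross-hybridisation between the copies was not tested.

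The 5 measured centromere and kinetochore genes among the 41 were lower by any amount. Over all genes this share was 55.5%, and over the brighter genes 50.6%. CENPI, of the constitutive centromere complex, went from 9.24 to 8.41, 1.78-fold lower. NDC80 and NUF2 form 1 arm of the complex that grips microtubules. NDC80 was 1.45-fold lower (8.43 to 7.90) and NUF2 1.26-fold (8.10 to 7.76). Of the partner arm, from the list of other mitosis genes, SPC25 was at 7.73 and 7.05, a difference of -0.68, whereas SPC24 was at 6.44 and 6.63, a difference of 0.19. CENPE, a kinetochore kinesin, was 1.24-fold lower (7.89 to 7.58). CENPF, a large coiled-coil protein of the outer kinetochore, was 1.06-fold lower, within the probe set SD. The probe set annotated jointly to SLC35F6 and CENPA differed by -0.26, which cannot be given to either gene.

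Of the spindle kinesins, 4 of 5 were lower by any amount, where 55.5% of all genes and 50.6% of the brighter genes were. KIF4A was higher. KIF11, the motor that pushes spindle poles apart, went from 9.20 to 8.44, 1.69-fold lower. KIF23, the motor of centralspindlin, was 1.48-fold lower (10.71 to 10.15). KIF2C, which takes microtubules apart at centromeres, was 1.33-fold lower (8.56 to 8.15), and KIF20A, a cytokinesis motor, 1.22-fold (8.36 to 8.07). KIF4A, a chromokinesin that works with PRC1 on the central spindle and with condensin on chromosome arms, went from 8.43 in EBC1 to 9.05 in EBC1-R, 1.54-fold higher, where 4.41% of all genes and 6.25% of the brighter genes were at least 1.5-fold higher. A further probe set is annotated to KIF4B and KIF4A together, and it went the other way, from 7.13 to 6.83, a difference of -0.31. The direction of KIF4A thus rests on 1 probe set, and averaging both would give a difference of 0.16. The measured genes beside KIF4A in RefSeq order, PDZD11 and GDPD2, differed by -0.02 and -0.16.

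Spindle proteins bound to microtubules were lower by small amounts. TPX2, which activates AURKA on the spindle, was 1.35-fold lower (10.44 to 10.01). NUSAP1, a microtubule bundling protein, was 1.22-fold lower (9.06 to 8.78) and ASPM, of the spindle poles, 1.17-fold (8.28 to 8.06). PRC1, which crosslinks the central spindle, was 1.09-fold lower, from 9.23 to 9.11, within the probe set SD and 0.75 log2 units from its partner KIF4A.

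The cytokinesis genes were lower throughout, where 55.5% of all genes and 50.6% of the brighter genes were lower by any amount. ECT2, the exchange factor that activates RhoA at the division plane, went from 10.67 to 9.87, 1.75-fold lower. RACGAP1, which recruits ECT2 and pairs with KIF23 in centralspindlin, was 1.26-fold lower (9.70 to 9.37). ANLN, the scaffold anillin of the contractile ring, was 1.21-fold lower (10.57 to 10.30).

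MKI67 and TOP2A, used as proliferation markers, were both lower. MKI67, which encodes the Ki-67 coat protein of mitotic chromosomes, went from 9.70 to 8.95, 1.69-fold lower. TOP2A, the topoisomerase that untangles sister chromatids, went from 10.10 to 9.68, 1.34-fold lower.

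The transcription factors of the programme were lower as well, and by unequal amounts. MYBL2 (B-MYB), the activating partner of the MuvB core, went from 9.59 to 8.45, 2.21-fold lower, and had the largest difference of the 41 genes. FOXM1, which joins MuvB later in G2, went from 10.58 to 10.08, 1.42-fold lower. Their differences were 0.64 log2 units apart. The measured neighbours of FOXM1 on chromosome 12, TEX52 and RHNO1, differed by -0.06 and 0.05.

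**Figure D3:**
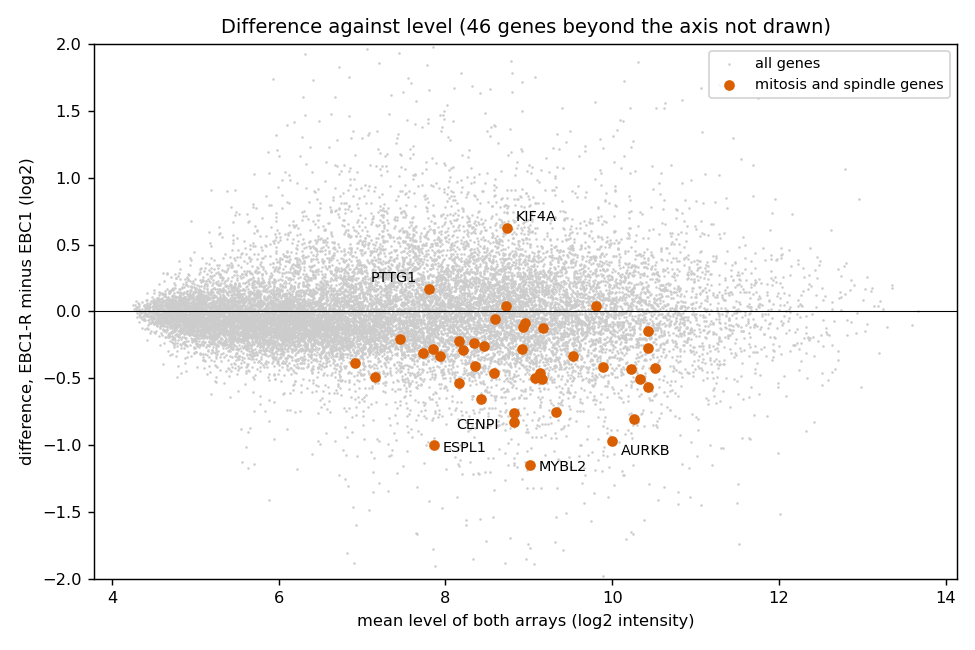
Difference, EBC1-R minus EBC1 in log2 units, against the mean level of both arrays in log2 intensity for all genes (grey) and the 41 mitosis and spindle genes (orange), 1 array per group, with 46 genes beyond 2 log2 units not drawn. The orange points lie mostly below 0 across their range of levels, with MYBL2 lowest and KIF4A highest.

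A wider list of 159 other mitosis genes, of which 154 were measured, had a median difference of -0.21, or 1.15-fold lower. In it 109 genes were lower by any amount, where 55.5% of all genes and 50.6% of the brighter genes were. By at least 1.2-fold 63 were lower (14.2% and 18.9%), by at least 1.5-fold 27 (3.16% and 5.23%) and by 2-fold none (0.887% and 1.51%). Whether this list differed from the 41 genes was not tested. The genes of this list were not sorted by whether their transcripts follow the cell cycle. By role, the outer kinetochore (median -0.46), the other kinesins (-0.42) and the other cytokinesis genes (-0.39) had medians at or below that of the 41 genes. Passenger and shugoshin genes (-0.30), entry regulators (-0.30), condensin (-0.28) and the inner centromere (-0.26) came next. The centrosome (-0.12), other spindle proteins (-0.09), the anaphase-promoting complex (-0.09), the DREAM and MuvB subunits (-0.02) and cohesin (-0.02) were closer to the -0.03 over all genes. The 5 other checkpoint genes had a median of 0.11.

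Within the roles of the wider list single genes differed by unequal amounts. PKMYT1, which places an inhibitory phosphate on CDK1, went from 8.72 to 7.73, 1.98-fold lower. WEE1, another inhibitory kinase of CDK1, named after its value was seen, went from 9.84 to 9.42, a difference of -0.43. CCNF was 1.75-fold and the kinase PBK 1.70-fold lower. Among outer kinetochore genes KNL1, the docking platform for BUB1, was 1.84-fold lower, NDE1, a dynein regulator, 1.84-fold, while SKA3, which couples NDC80 to microtubules, differed by -0.85. Among inner centromere genes CENPU was 1.81-fold lower, HJURP, the chaperone that deposits the CENPA protein, was 1.77-fold lower, and CENPO differed by -0.85. TRIP13, which takes the checkpoint complex apart, was 1.70-fold lower, while the other genes of its group differed by at most 0.17 either way.

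All 8 condensin genes were lower by any amount, where 55.5% of all genes and 50.6% of the brighter genes were. They ran from NCAPG, 1.83-fold lower, to SMC2, with a difference of -0.03. By at least 1.2-fold 5 were lower (14.2% and 18.9%), and by at least 1.5-fold only NCAPG (3.16% and 5.23%). SMC2 and NCAPD2 (-0.07) lay within the probe set SD, and both were picked with their values known. Among cohesin genes the largest difference was that of CDCA5 (sororin), which protects cohesin in G2, at 1.72-fold lower. The kinesins KIF18B and KIFC1 were 1.74-fold and 1.69-fold lower, TACC3, of spindle microtubules, 1.72-fold, and ARHGAP11A 1.70-fold. UBE2S, an E2 enzyme of the anaphase-promoting complex, was 1.52-fold lower, STIL, of centriole assembly, 1.51-fold, and the cytokinesis kinase CIT 1.51-fold. The genes of this list at least 1.5-fold higher were HAUS6 and LIN52, where 4.41% of all genes and 6.25% of the brighter genes were. HAUS6, of the augmin complex, was 1.69-fold higher (8.02 to 8.78). LIN52, of the MuvB core, was 1.58-fold higher (7.54 to 8.20).

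**Figure D4:**
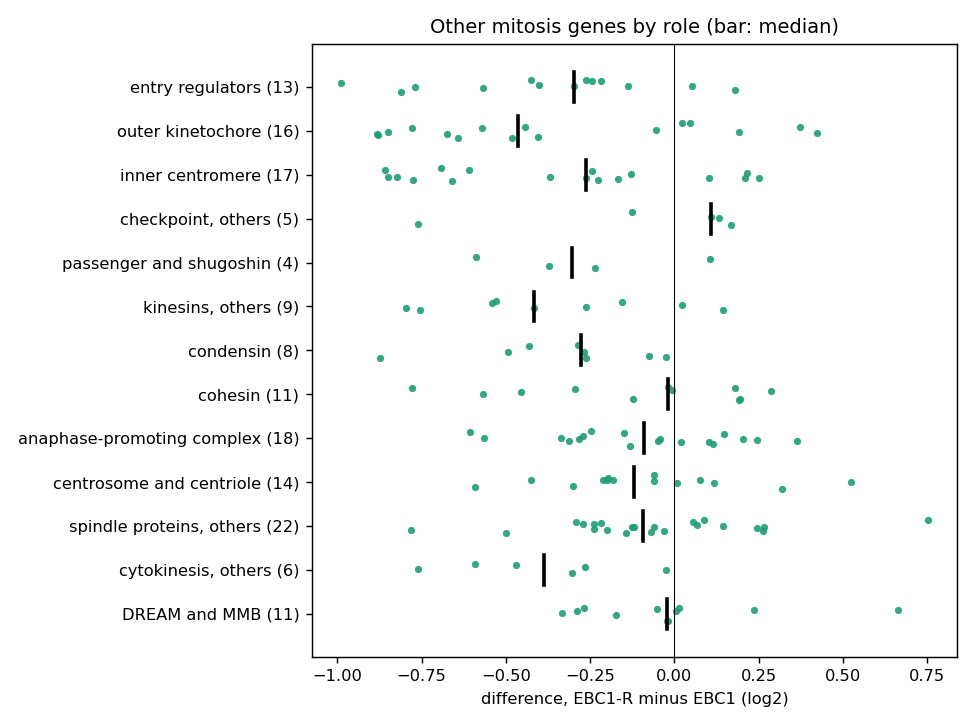
Log2 difference, EBC1-R minus EBC1, of each of 154 other mitosis genes, by role, with the number of genes in brackets and the median as a bar. Points are jittered vertically. The medians run from -0.46 for the outer kinetochore to 0.11 for the other checkpoint genes.

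DNA replication genes, the nearest other part of the proliferation programme, gave values of a like order. Of 47 measured, 36 were lower by any amount, 25 by at least 1.2-fold and 11 by at least 1.5-fold, with a median difference of -0.30. Over all genes these shares were 55.5%, 14.2% and 3.16%, and over the brighter genes 50.6%, 18.9% and 5.23%. RRM2, a ribonucleotide reductase subunit, was 1.92-fold lower, CDC45, of the replicative helicase, 1.78-fold, and DBF4, the activator of the CDC7 kinase, 1.69-fold. With 1 array per group, whether mitosis and replication genes differed from each other was not tested.

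The genes lying next to the mitosis genes on their chromosomes were also read. The nearest measured genes on both sides in RefSeq order that were on none of the lists came to 81. Their median difference was 0.04, with 37 lower by any amount, 10 lower by at least 1.2-fold and 16 higher by at least 1.2-fold. Over all genes these shares were 55.5%, 14.2% and 15.1%. Differences are compressed at low levels, and 35 of the 81 neighbours had a mean level under that of the median gene. Over the other 46 neighbours the median difference was 0.10. Of them, 15 were lower by any amount, 6 lower by at least 1.2-fold and 11 higher by at least 1.2-fold. Over the brighter genes these shares were 50.6%, 18.9% and 21.0%. The 41 genes lay on 16 chromosomes, and 30 of them were lower than both of their neighbours. The share of all genes lower than both neighbours was not computed, so nothing is read from this count. Only gene order was used, because no source used here gives the build of the array design.

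**Figure D5:**
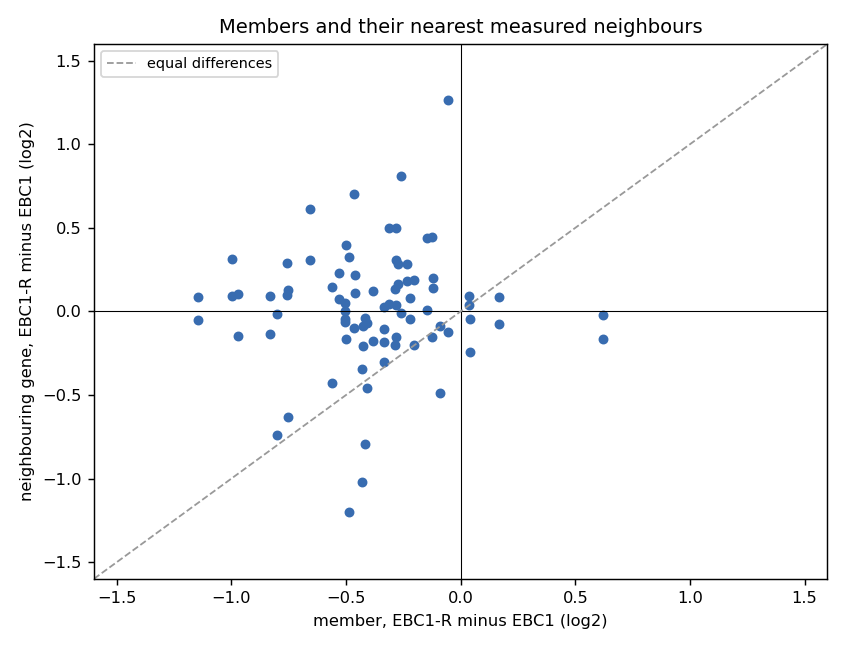
Log2 difference, EBC1-R minus EBC1, of each nearest measured neighbour (vertical axis) against that of the mitosis or spindle gene it lies beside (horizontal axis), with a dashed line of equal differences. The neighbours scatter around 0, with a median of 0.04, beside genes whose median is -0.38.

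Both arrays held 28869 probe sets, with column medians of 6.73 in EBC1 and 6.71 in EBC1-R. The epithelial markers EPCAM and CDH1 were at 11.33 and 11.96 in EBC1 and differed by -0.08 and 0.10, while the keratins KRT8, KRT18 and KRT19 were 1.72-fold to 1.86-fold lower in EBC1-R. The part of these keratin differences in the lower mitosis values was not tested. Of the squamous markers, TP63 and KRT6A had no probe set of their own. The other 4 stood at 7.26 and 6.97 (KRT14), 6.17 and 6.11 (KRT5), 6.53 and 6.39 (SOX2) and 5.19 and 5.13 (DSG3). None of these 4 had a mean level at or above the median gene, and presence cannot be judged without detection calls. Among 15 leukocyte, fibroblast and endothelial markers none differed by 1.2-fold, and 1 (COL1A1) had a mean level at or above the median gene. A low level is not separated from background in these values.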

How the data were processed

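Total RNA of EBC1 (1 array) and EBC1-R (1 array) was labelled with an Affymetrix whole-transcript kit, per the labels' protocols. The array type named in the labels differs from that of the table, whose probe set identifiers match the annotation of a whole-transcript gene array. The authors' deposited values, 1 per probe set, were read as log2 intensities because of their range. How they were background-corrected, summarized and normalized, and their log base, is stated by no source used here. The sorted columns differ by at most 0.17, so a change shared by most genes would have been removed before deposit.

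Of 28869 probe sets, 19310 named 1 gene, 1752 several and 7807 none. Single-gene probe sets were averaged per gene (18377 genes). RefSeq (GRCh38.p14) matched 19279 of them by gene identifier, with no symbol altered. Differences are EBC1-R minus EBC1 in log2 units. With 1 array per group there is no test, and the number of arrays limits the precision. The members and lists were chosen with earlier results of these data known. All 42 genes are accounted for. Of the other lists, genes at least 1.5-fold different were named, at most 3 per role, and the 3 largest replication genes. BUB3, SPC24, SPC25, PTTG2, PTTG3P and the neighbours of KIF4A were chosen after their values were seen. Gene averaging was tested on simulated data. Alternatives were quantile normalization, centring, lowess (span 0.2), a pseudocount of 16, other probe set rules and level filters. Python 3.11.15, pandas 2.3.3 and statsmodels 0.14.6 were used.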

Additional observations from a re-analysis of the deposited data

How the results depend on the processing

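No paired analysis was possible because each group has 1 array, and for the same reason no array could be left out. The count of mitosis and spindle genes lower by any amount ran from 35 to 38 over 9 settings. The lowest came under the level filters, which leave 39 genes. The highest came with probe sets that name several genes included, which gives 42 genes. That setting counts the probe set of SLC35F6 and CENPA for CENPA, although it cannot be given to either gene. The median difference of the mitosis and spindle genes ran from -0.41 to -0.33 over 20 settings, each role left out in turn included. The count lower by at least 1.2-fold ran from 25 to 29, and by at least 1.5-fold from 8 to 9. The count lower by at least 2-fold was 2 after quantile normalization, with ESPL1 added at -1.02, in place of 1. CCNB1, CDC20, KIF4A and PTTG1 were the higher genes under each setting. With probe sets that name several genes included, a setting chosen after seeing the data, KIF4A was at 0.16. Medians ran from -0.21 to -0.18 for other mitosis genes, from -0.35 to -0.28 for replication genes and from 0.02 to 0.10 for neighbours, whose settings were chosen after seeing the data. With only the bases before the start searched, TTTGAA was found in 18 genes and TTCGAA in 1, in place of 24 and 3.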
